A study of Mus musculus with 21 samples.

Results

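The citric acid cycle was followed through 9 of its enzyme genes, *Cs*, *Idh3a*, *Idh3b*, *Idh3g*, *Ogdh*, *Sucla2*, *Suclg1*, *Fh1* and *Mdh2*, in mice whose keratinocytes overexpress interferon kappa. The genes were selected on their symbols, with earlier results of these data in view, and all 9 were found among the 55491 genes of both the skin and the lymph node table. The record of that choice names no contrast, so every comparison of the 9 genes is given as a description without p-values and supports nothing by itself. All 9 genes passed the filter on low counts in both tissues (19101 genes tested in skin and 16173 in lymph nodes), with 1579 to 23249 counts per gene and library in skin and 1238 to 9987 in lymph nodes.

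Bulk polyA RNA-seq was performed on 9 skin libraries and 12 lymph node libraries. The skin came from BALB/c mice at 12 months of age, and all 9 skin libraries are labeled as untreated. It comprised wild-type skin (WT, n = 3) and skin of *Ifnk* transgenic (TG) mice, in which *Ifnk* is driven by the keratin 14 promoter and so is made in basal keratinocytes, taken without a lesion (nonlesional, NL, n = 2) or within one (lesional, L, n = 4). The inguinal lymph nodes, which drain the skin, came from WT and TG mice, whose age is not given in the sources used here, that were either untreated (NoTx, n = 3 per genotype) or exposed to UVB at 250 mJ/cm2 on 3 days per week for 2 weeks and observed for 2 further weeks (UV, n = 3 per genotype). The transgene was made in C57BL/6 mice and backcrossed to BALB/c. The labels do not say whether NL and L libraries share a mouse, nor whether the libraries of a group are separate animals, so the p-values below measure only the spread between these samples. They also give no body site for the skin. In the paper lesions were mainly facial, and nonlesional skin was taken from the back and from sites comparable to the lesions. Whether site differs between the skin groups is therefore unknown. Total counts were 40499078 to 56511276 per skin library and 27599809 to 36428435 per node library. *Xist*, the RNA of the inactive X chromosome, was near 0 in NL library 3 and L library 6 but not in the other skin libraries, and it was low in all 12 node libraries. The tissue labels matched their markers. In CPM (counts scaled to library size), 8 epidermis markers summed to 10550 to 28079 in skin libraries and at most 2.98 in node libraries, and 8 T cell markers summed to 2425 to 3043 in node libraries and at most 75.3 in skin libraries.

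The citric acid cycle runs in the mitochondrial matrix. It oxidizes the acetyl group of acetyl-CoA to carbon dioxide and passes the electrons, as NADH and as the reduced flavin of succinate dehydrogenase, to the respiratory chain. Tissues rich in mitochondria, such as muscle, express its enzymes highly, and mouse skin includes a thin sheet of skeletal muscle beneath the dermal fat.

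Positions are those of GENCODE on GRCm38 and all 9 genes are protein coding. *Cs* (ENSMUSG00000005683, chr10:128337734-128362479, plus strand) encodes citrate synthase, which joins acetyl-CoA to oxaloacetate. *Idh3a* (ENSMUSG00000032279, chr9:54586334-54604661, plus strand) encodes the catalytic subunit of the NAD-dependent isocitrate dehydrogenase. *Idh3b* (ENSMUSG00000027406, chr2:130279309-130284547, minus strand) and *Idh3g* (ENSMUSG00000002010, chrX:73778963-73786897, minus strand) encode its other two subunits. *Ogdh* (ENSMUSG00000020456, chr11:6291633-6356642, plus strand) encodes the substrate-binding component of the 2-oxoglutarate dehydrogenase complex. *Suclg1* (ENSMUSG00000052738, chr6:73248382-73276911, plus strand) encodes the subunit shared by both succinyl-CoA ligases, and *Sucla2* (ENSMUSG00000022110, chr14:73525319-73596142, plus strand) the subunit that makes the enzyme specific for ADP. *Fh1* (ENSMUSG00000026526, chr1:175600374-175625635, minus strand) encodes fumarase, and *Mdh2* (ENSMUSG00000019179, chr5:135778480-135790398, plus strand) the malate dehydrogenase that regenerates oxaloacetate. *Idh3b* shares 5 exonic bases with *Nop56* on the opposite strand, and no exon of the other 8 genes overlaps that of another gene.

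Since the 9 genes moved together in skin, the sequences before their starts were searched for letters recognized by factors that act on mitochondrial genes. RefSeq promoters (GRCm38.p6) were matched for 8 of the 9 genes, all but *Idh3a*. Over the 250 bases before each start, on both strands, the searched letters were GCATGCGC (NRF1), CCGGAAG (GABPA and other ETS factors), CAAGGTCA (estrogen-related receptors) and ATGGCGGC (YY1), which do not overlap one another. Shown are the genes with the smallest change (*Cs*) and one of the largest changes (*Ogdh*) between L and WT skin, and *Idh3g*, whose window held a match. Capitals mark the match, each sequence is written in the direction of its gene, and the *Idh3g* window is cut where an exon of the neighboring gene begins.
Cs, chr10:128337477-128337726, plus strand: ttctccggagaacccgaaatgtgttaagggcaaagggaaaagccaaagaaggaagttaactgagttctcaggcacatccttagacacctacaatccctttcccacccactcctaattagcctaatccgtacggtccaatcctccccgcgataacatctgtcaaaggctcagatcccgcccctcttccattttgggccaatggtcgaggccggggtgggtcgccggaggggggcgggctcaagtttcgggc
Ogdh, chr11:6291347-6291596, plus strand: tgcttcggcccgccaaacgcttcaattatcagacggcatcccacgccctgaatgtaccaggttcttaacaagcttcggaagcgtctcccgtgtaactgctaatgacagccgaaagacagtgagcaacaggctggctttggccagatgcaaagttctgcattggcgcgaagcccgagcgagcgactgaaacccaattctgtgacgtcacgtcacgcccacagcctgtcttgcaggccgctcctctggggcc
Idh3g, chrX:73786898-73787027, minus strand: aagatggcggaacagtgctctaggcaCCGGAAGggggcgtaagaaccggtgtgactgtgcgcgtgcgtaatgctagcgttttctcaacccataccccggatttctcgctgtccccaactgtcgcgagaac
The match of *Idh3g* began 104 bases before the start. These ETS letters were in 6.91% of 32851 promoters of the same length. The NRF1 letters were in 2.26% of them. Among the 8 genes with a promoter they stood only in *Ogdh*, as the same match seen from 2 later starts (15 and 36 bases before). The receptor and YY1 letters, in 1.33% and 1.03% of all promoters, were in none of the 8 genes' windows. A match is a run of letters and not a measured binding site.

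The comparison of L with WT skin asked how the transcripts of a fully developed lesion differ from those of skin without the transgene. All 9 genes were lower in L skin, by 20% (*Cs*) to 57% (*Idh3a*), and in each of them every L library lay below every WT library. Their summed level was 2260, 2292 and 2356 CPM in the WT libraries and 1093 to 1442 CPM in the L libraries. A call was an adjusted p under 0.05 in edgeR's quasi-likelihood test over all genes. The 9 of 9 calls stand beside 20.2% of all tested genes called lower in this contrast, and the 9 genes without overlap beside 23.4% of all tested genes. Nothing is read from either share, since these genes were chosen with earlier results of these data known. The median log2 fold change of the 9 genes was -0.91, against 0.06 over all genes.

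*Cs* was at 474, 455 and 483 CPM in WT libraries 8, 9 and 10, at 444 and 467 in NL libraries 2 and 3, and at 371, 345, 399 and 392 in L libraries 4, 5, 6 and 7. The WT and NL values overlapped and the L values lay below both. The log2 fold change of *Cs* between L and WT was -0.32 (SE 0.10), the smallest of the 9, and its call was lost when NL library 2, L library 5 or any 1 WT library was left out.

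The 3 subunits of the NAD-dependent isocitrate dehydrogenase were at least 49.9% lower in L than in WT skin. *Idh3a* was at 281, 268 and 268 CPM in WT, 208 and 223 in NL, and 146, 81.0, 105 and 136 in L libraries, in the same library order (log2 fold change L against WT -1.22, SE 0.19). *Idh3b* was at 166, 184 and 183 CPM in WT, 143 and 151 in NL, and 112, 73.9, 85.1 and 85.2 in L libraries (log2 fold change -0.997, SE 0.14). *Idh3g* was at 117, 125 and 121 CPM in WT, 99.9 and 96.8 in NL, and 63.5, 38.9, 53.6 and 53.5 in L libraries (log2 fold change -1.20, SE 0.15). For each subunit the WT, NL and L values formed 3 ranges without overlap, and L library 5 was the lowest.

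*Ogdh*, which with *Dlst* and *Dld* builds the 2-oxoglutarate dehydrogenase complex, was at 455, 453 and 478 CPM in WT, 396 and 424 in NL, and 230, 151, 218 and 220 in L libraries. Its log2 fold change between L and WT was -1.17 (SE 0.15), and L library 5 stood apart from the other 3 L libraries.

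The succinyl-CoA ligase genes, whose enzyme yields a nucleoside triphosphate, were lower by 41.8% (*Sucla2*) and 35.9% (*Suclg1*). *Sucla2* was at 224, 222 and 245 CPM in WT, 193 and 206 in NL, and 165, 133, 112 and 126 in L libraries (log2 fold change -0.78, SE 0.13). *Suclg1* was at 141, 134 and 134 CPM in WT, 105 and 103 in NL, and 92.7, 78.8, 82.2 and 96.1 in L libraries (log2 fold change -0.64, SE 0.09). For both genes the 3 groups formed ranges without overlap.

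*Fh1* and *Mdh2*, the last enzymes of the cycle, were lower by 46.6% and 44.5%. *Fh1* was at 141, 162 and 162 CPM in WT, 118 and 119 in NL, and 91.2, 66.9, 80.0 and 92.6 in L libraries (log2 fold change -0.91, SE 0.12). *Mdh2* was at 262, 289 and 283 CPM in WT, 216 and 229 in NL, and 171, 124, 147 and 175 in L libraries (log2 fold change -0.85, SE 0.13). For both genes too the 3 groups did not overlap.

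**Figure D1:**
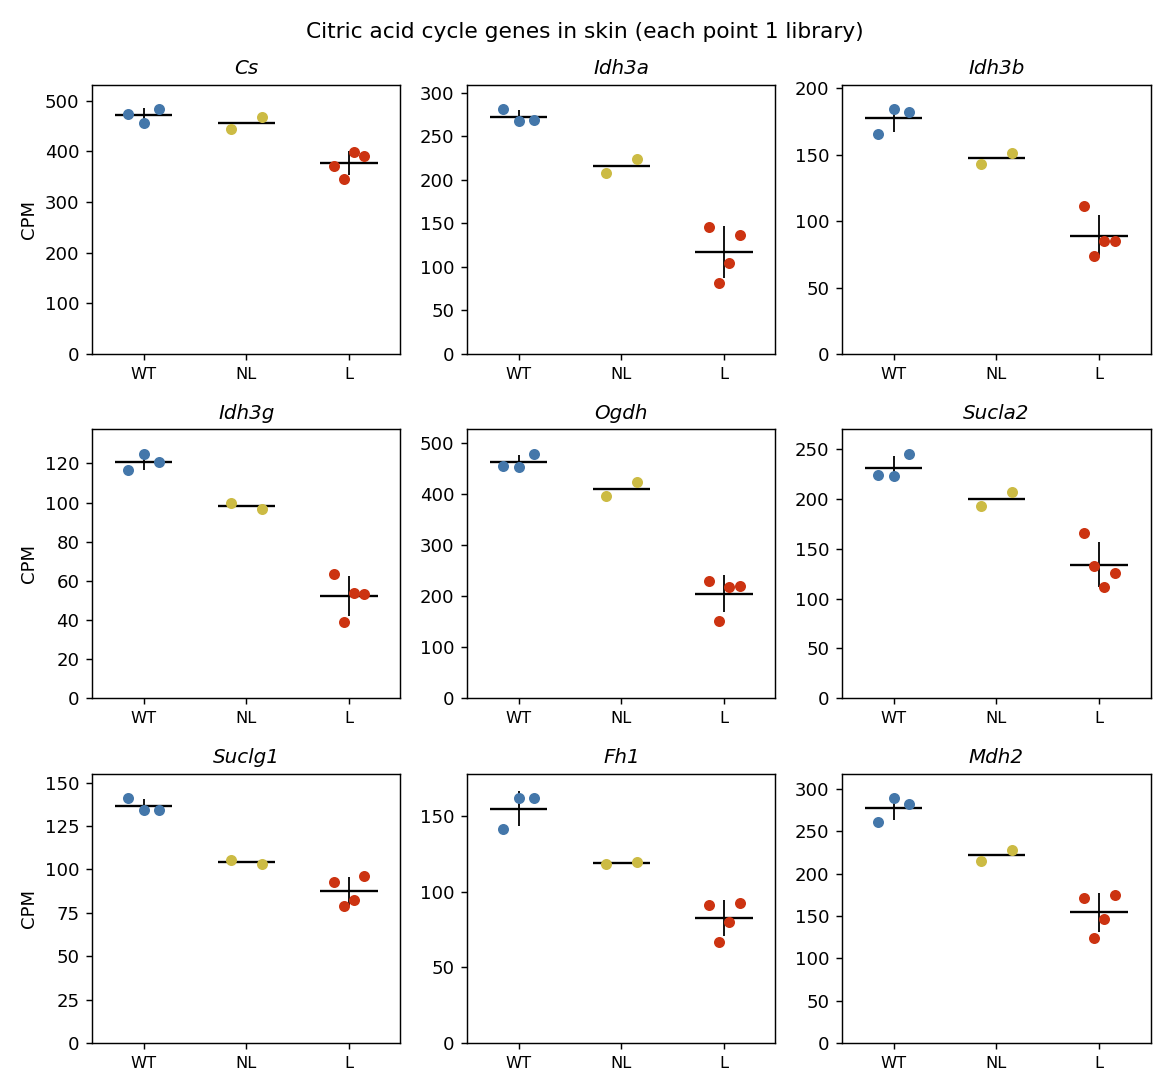
CPM (y axis, from 0) of each of the 9 genes in WT (n = 3), NL (n = 2) and L (n = 4) skin, 1 point per library, with the mean as a bar and the SD as a vertical line where n is over 2. The L points lie below all WT and NL points in every panel, and the NL points lie below the WT points in all panels but that of *Cs*.

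The 9 genes varied more among L libraries than among WT libraries. The coefficient of variation was 6.37% (*Cs*) to 25.4% (*Idh3a*) among the 4 L libraries and 2.74% to 7.59% among the 3 WT libraries. L library 5 was the lowest in 8 of the 9 genes and L library 6 in the remaining one, *Sucla2*. L library 4 was the highest in 5 genes, L library 7 in 3 and L library 6 in 1.

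The comparison of L with NL skin asked what separates lesion from uninvolved skin in mice with the same transgene. It shares the L libraries with the comparison above. All 9 genes were lower in L skin without overlap between groups, beside 24.7% of all tested genes, and 7 were called, beside 11.8% of all tested genes called lower. The log2 fold change was -1.002 for *Ogdh* (SE 0.17), -0.91 for *Idh3g* (SE 0.16), -0.88 for *Idh3a* (SE 0.21), -0.73 for *Idh3b* (SE 0.15) and -0.58 for *Sucla2* (SE 0.15). It was -0.53 for *Mdh2* (SE 0.15) and -0.52 for *Fh1* (SE 0.14). *Cs* at -0.28 (SE 0.11) and *Suclg1* at -0.26 (SE 0.11) were not called. The median over the 9 genes was -0.58, against 0.03 over all genes. With only 2 NL libraries the calls rested on both of them, since 1 of the 9 genes was called without NL library 2, 2 without NL library 3 and 3 when the WT libraries were left out of the fit.

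The comparison of NL with WT skin asked what the transgene changes where no lesion formed. The 9 log2 fold changes were all negative, from -0.39 (*Suclg1*, SE 0.11) and -0.38 (*Fh1*, SE 0.15) to -0.05 (*Cs*, SE 0.12), with a median of -0.30. NL libraries lay below all WT libraries in 8 of the 9 genes, beside 16.3% of all tested genes. edgeR called 0 of the 9, as it did 0% of all tested genes, while 2 had an unadjusted p under 0.05, as did 7.67% of all tested genes. DESeq2 called 0 of the 9, and 62 of 20036 genes. Markers of other cells differed between NL and WT skin as well. The 8 epidermis markers were all higher in NL skin without overlap, summed to 20152 and 21465 CPM against 11044 to 13501 CPM in WT skin. Of 8 proliferation markers, 7 were higher without overlap. Of all tested genes 18.6% were higher without overlap, and edgeR called 0 markers of either list. Their part in the values of the 9 genes was not tested.

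Further genes of the cycle were examined as a list of 8 and were tested. This list too was chosen with earlier results of these data known and uses the same libraries. Its calls are therefore not independent of that choice. All 8 were called lower in L than in WT skin, beside 20.2% of all tested genes, with a median log2 fold change of -0.79. *Sdha*, the flavoprotein of succinate dehydrogenase, was at 383 ± 20.2 CPM in WT (SD, n = 3) and 163 ± 34.7 CPM in L skin (SD, n = 4), and fell by 1.24 on the log2 scale (SE 0.17, edgeR adjusted p = 0.000789). *Sdhc* and *Sdhd*, its membrane anchors, fell by 0.82 (adjusted p = 0.000736) and 0.76 (adjusted p = 0.00114), and *Sdhb*, its iron-sulfur subunit, fell by 0.63 (adjusted p = 0.00518).

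*Idh2*, the NADP-dependent mitochondrial isocitrate dehydrogenase, fell by 1.13 (edgeR adjusted p = 0.000525). *Dlst* and *Dld*, further components of the 2-oxoglutarate dehydrogenase complex, fell by 0.67 (adjusted p = 0.00192) and 0.63 (adjusted p = 0.00186). *Suclg2*, the subunit that makes succinyl-CoA ligase specific for GDP, fell by 0.88 (adjusted p = 0.00229). Between L and NL skin 7 of these 8 genes were called lower by edgeR, beside 11.8% of all tested genes. The calls were led by *Sdha* at -0.94 (edgeR adjusted p = 0.00908) and *Idh2* at -0.91 (adjusted p = 0.00509), while *Sdhb* was at -0.32 (adjusted p = 0.146). These calls rested on the NL libraries too, at 1 without NL library 2, 0 without NL library 3 and 4 without L library 6. Between NL and WT skin all 8 fold changes were negative (-0.34 to -0.19) and edgeR called 0 of them, as it did 0% of all tested genes. Of the 8, 1 (*Sdhd*) had an unadjusted p under 0.05, as did 7.67% of all tested genes. DESeq2 called 0 of the 8, and 62 of 20036 genes.

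**Figure D2:**
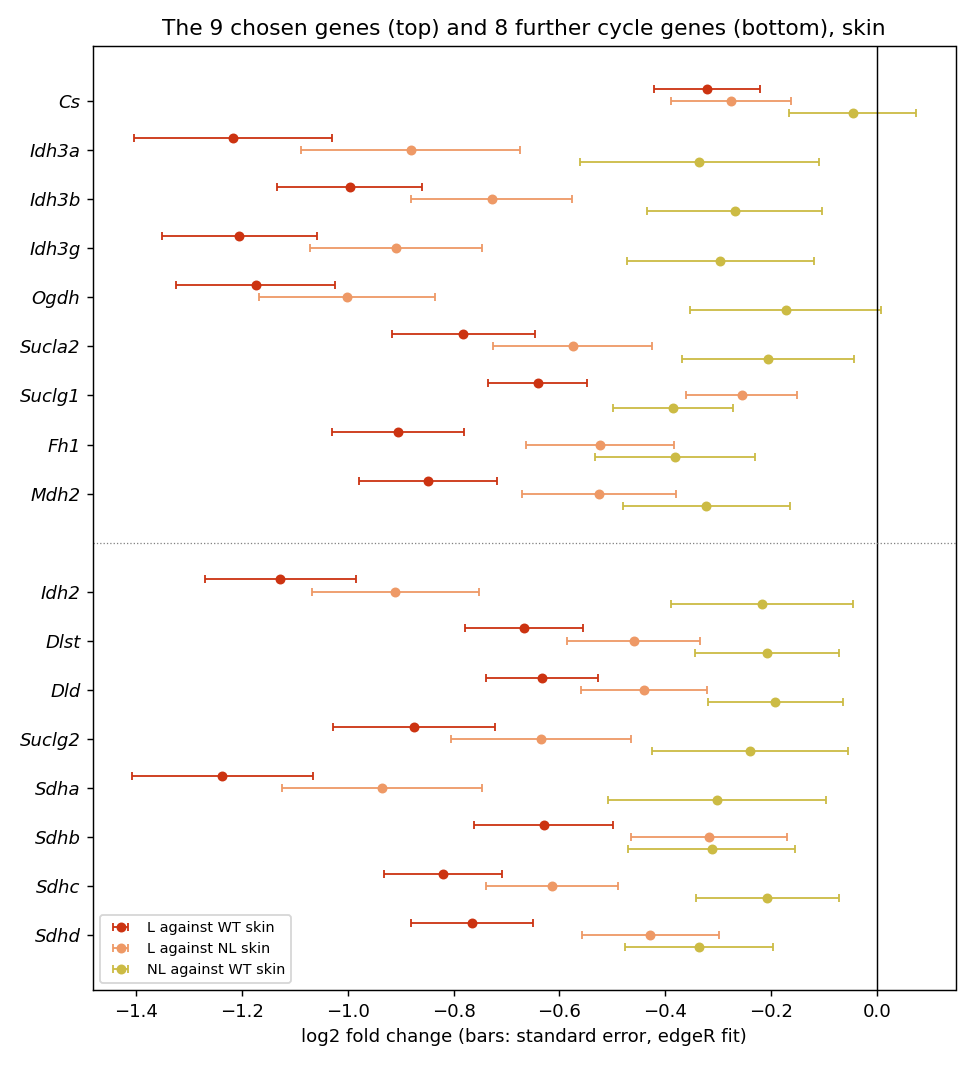
log2 fold change (x axis) with its standard error for the 9 chosen genes (upper block) and 8 further cycle genes (lower block) in the 3 skin comparisons. Every estimate is below 0, *Sdha* is lowest at -1.24 and the NL against WT estimates lie between -0.39 and -0.05.

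Around the cycle, genes were called in both directions. Of 13 genes of pyruvate entry, 11 were called lower and 1 higher between L and WT skin. *Pdha1* and *Dlat*, components of the pyruvate dehydrogenase complex, fell by 1.14 (edgeR adjusted p = 0.000742) and 0.88 (adjusted p = 0.000684), and *Pdpr*, the regulatory subunit of its phosphatase, fell by 1.63 (adjusted p = 0.000401). *Pdk3*, a kinase that inhibits the complex, rose by 0.94 (adjusted p = 0.000641) and was the 1 gene called higher. The list also holds the kinases *Pdk1*, *Pdk2* and *Pdk4*, none of which was called higher. Its lowest log2 fold change was -4.10, in a gene not named here. Whether inhibition of the complex changed was not tested. For these and the following lists 20.2% of all tested genes were called lower and 23.0% called higher.

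Of 14 genes of anaplerosis and transport, 6 were called lower and 4 higher. *Slc25a12* and *Slc25a13*, which encode the paired mitochondrial aspartate-glutamate carriers, moved in opposite directions, at -2.01 (edgeR adjusted p = 0.00145) and 1.81 (adjusted p = 0.000153). *Glud1*, glutamate dehydrogenase, fell by 0.76 (adjusted p = 0.00141) and *Got2*, the mitochondrial aspartate aminotransferase, by 0.75 (adjusted p = 0.00296).

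Of 7 cytosolic counterparts, 4 were called lower, namely *Got1* (log2 fold change -1.27, edgeR adjusted p = 0.000794), *Aco1* (-0.85, adjusted p = 0.00405), *Mdh1* (-0.63, adjusted p = 0.00139) and *Idh1* (-0.46, adjusted p = 0.0162). Of 7 regulators of mitochondrial biogenesis, 1 was called lower, the coactivator *Ppargc1b* (-1.08, adjusted p = 0.003), and 1 higher, the transcription factor *Nrf1* (0.48, adjusted p = 0.0135). The regulator counts did not exceed the 20.2% of all tested genes called lower and the 23.0% called higher. Nothing is read from them about the list.

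Markers of other cell types moved with the 9 genes. In bulk skin, fewer cells of a type and less RNA per cell cannot be told apart. The summed level of 10 skeletal muscle markers was 31393 to 42915 CPM in WT, 28188 and 33432 CPM in NL, and 7893, 26, 414 and 1748 CPM in L libraries 4, 5, 6 and 7. All 10 were lower in L than in WT skin without overlap, 5 of them called, and none of the 10 was at 0 in any skin library. The summed level of the 9 genes followed the same order among the L libraries, at 1442, 1093, 1281 and 1376 CPM in libraries 4, 5, 6 and 7. The 8 adipocyte markers summed to 8457 to 12093 CPM in WT, 7046 and 8084 in NL and 884 to 4510 CPM in L skin, all 8 lower without overlap between L and WT and 4 called. The 9 markers of slow and oxidative muscle summed to 1337 to 1843 CPM in WT and 4.79 to 583 CPM in L skin. Only 6 of these 9 had a log2 fold change below 0, and the highest was at 0.70. Without overlap 5 were lower, and 2 were called. Beside the counts of these lists, 23.4% of all tested genes were lower without overlap and 20.2% were called lower. Between L and NL skin edgeR called 0 of the muscle, adipocyte and slow muscle markers.

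Other lists were higher in L skin. The 8 hair shaft genes measured, which are made in growing follicles, summed to 1854 to 6080 CPM in L and to at most 1.86 CPM in any WT or NL library. The 8 proliferation genes were all called higher between L and WT skin, beside 23.0% of all tested genes. They summed to 314 to 616 CPM in L and 107 to 127 CPM in WT libraries. The 8 epidermis markers summed to 10550 to 28079 CPM in L skin, a range that overlapped that of WT skin. Of these 8, 4 were called higher against WT, beside the same 23.0% of all tested genes. Immune and gland lists were mixed between L and WT skin. Called higher were 5 of 8 T cell, 3 of 6 plasma cell, 2 of 7 myeloid, 1 of 7 B cell and 3 of 7 sebaceous gland markers. None of these markers was called lower, but log2 fold changes were below 0 for 2 T cell, 1 plasma cell, 5 myeloid, 4 B cell and 1 sebaceous gland markers. With the mean muscle marker level of each library as a covariate, 5 of the 9 genes (*Idh3a*, *Idh3b*, *Idh3g*, *Ogdh* and *Fh1*) were called lower between L and WT skin, and the fold changes ran from -0.76 (*Ogdh*) to -0.24 (*Cs*). Under the same covariate 3 of the 8 further cycle genes were called between L and WT skin, and 0 of both sets between L and NL skin by edgeR. The shares of all tested genes called lower, 20.2% (L against WT) and 11.8% (L against NL), belong to the fit without the covariate. No share is given for the fit with it, so nothing is read from these counts. The muscle level of L libraries did not overlap that of WT or NL libraries, so lesion and muscle content cannot be told apart fully by this fit. The part of adipocytes, hair follicles, sebaceous glands, epidermis, immune cells, dividing cells and body site in these values was not tested.

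**Figure D3:**
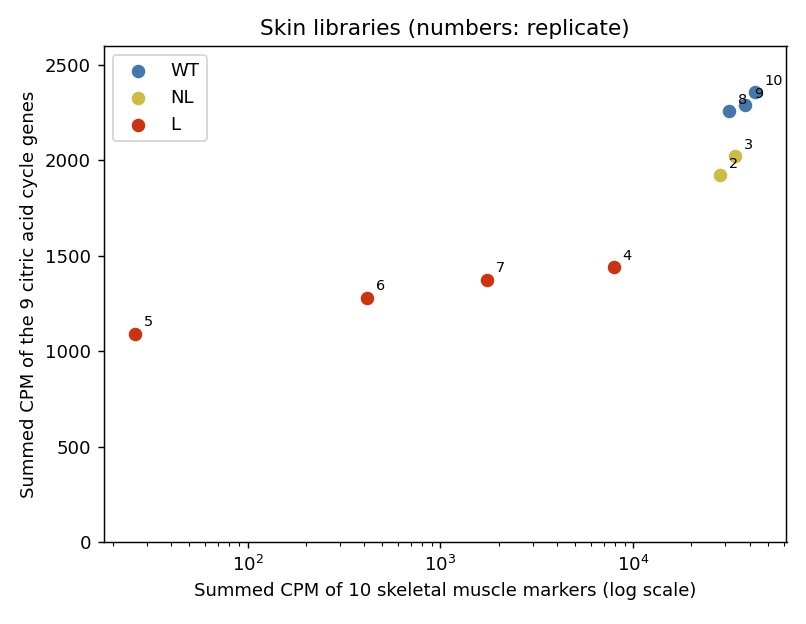
Summed CPM of the 9 genes (y axis, from 0) against the summed CPM of 10 skeletal muscle markers (x axis, log scale) in the 9 skin libraries, numbered by replicate. The 4 L libraries lie at 26 to 7893 CPM of muscle markers and 1093 to 1442 CPM of the 9 genes, below and to the left of the WT and NL libraries.

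Levels were compared between genes per kilobase of annotated exon. The length used joins all annotated exons of a gene and is not that of the transcripts expressed, so the order of genes can depend on the annotation. In WT skin *Ogdh* (84.7 ± 2.60 CPM per kb, SD, n = 3), *Cs* (81.4 ± 2.45) and *Mdh2* (78.0 ± 4.06) were the highest, and each overlapped the next in range. *Sucla2* (57.7 ± 3.17) followed, then *Idh3a* (53.7 ± 1.47) and *Idh3b* (51.9 ± 3.00), which overlapped, then *Fh1* (45.7 ± 3.47) and *Idh3g* (44.7 ± 1.54), which overlapped, and *Suclg1* (29.5 ± 0.855) was the lowest without overlap. In L skin *Cs* (65.2 ± 4.15 CPM per kb, SD, n = 4) stood above the rest without overlap, *Mdh2* (43.3 ± 6.59) and *Ogdh* (37.5 ± 6.65) overlapped, and so did every later pair of neighbors down to *Idh3g* (19.4 ± 3.74) and *Suclg1* (18.9 ± 1.79). The per-length ratio of *Cs* to *Ogdh* was 0.949 to 0.984 in WT, 1.04 and 1.06 in NL and 1.52 to 2.16 in L libraries, ranges that did not overlap.

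In untreated WT nodes the order was different. *Ogdh* (49.7 ± 4.28 CPM per kb, SD, n = 3) was the highest without overlap, and *Mdh2* (39.2 ± 2.81) and *Cs* (38.8 ± 1.95) overlapped below it. *Idh3g* (31.1 ± 3.10) came next, ahead of *Idh3b* (20.7 ± 1.64) and *Fh1* (19.3 ± 1.78), and *Idh3a* (13.1 ± 0.465) and *Sucla2* (12.8 ± 0.416) were the lowest and overlapped. The tables of the 2 tissues were normalized separately, so levels were not tested between them.

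Ratios within a library do not depend on its scaling, but their size depends on the exon lengths used. The per-length ratio of *Sucla2* to *Suclg2*, the ADP-specific over the GDP-specific subunit of succinyl-CoA ligase, was 2.96 to 3.08 in WT skin, 2.93 and 3.24 in NL skin and 2.55 to 4.40 in L skin, with all 3 ranges overlapping, and 0.918 to 1.13 in WT UV nodes and 0.932 to 1.05 in untreated WT nodes. The per-length ratio of *Idh3a* to *Idh3g* was 1.14 to 1.28 in WT skin and 1.04 to 1.36 in L skin, and 0.392 to 0.472 in untreated WT nodes. Both of these ratios overlapped between L and WT skin, whereas that of *Idh3g* to *Idh3b* did not, at 0.839 to 0.891 in WT and 0.667 to 0.798 in L skin.

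**Figure D4:**
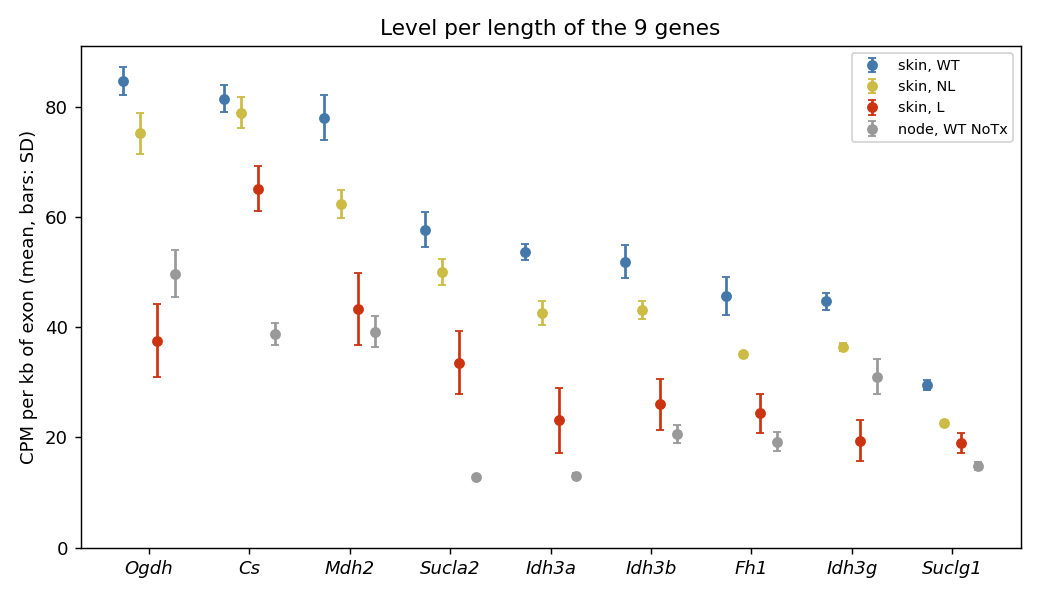
Mean level per kilobase of exon (y axis, CPM per kb, from 0) with its SD for the 9 genes, ordered by WT skin, in WT (n = 3), NL (n = 2) and L (n = 4) skin and in untreated WT lymph nodes (n = 3). *Cs* is the highest in L skin (65.2 CPM per kb) and *Ogdh* in WT skin (84.7 CPM per kb), and *Sucla2* and *Idh3a* are the lowest in nodes (12.8 and 13.1 CPM per kb).

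The lymph nodes were compared to ask whether UVB and the transgene change the draining node. UVB in WT mice gave estimates below 0 for all 9 genes, from -0.23 to -0.04 on the log2 scale with a median of -0.16, against -0.0048 over all genes. *Ogdh* was at 276, 246 and 292 CPM in WT NoTx libraries 1, 2 and 3 and at 230, 236 and 229 CPM in WT UV libraries 7, 8 and 9 (log2 fold change -0.23, SE 0.09). *Cs* was at 220, 216 and 237 CPM in WT NoTx and at 203, 197 and 188 CPM in WT UV libraries (log2 fold change -0.19, SE 0.08). For both genes the UV libraries lay below the NoTx libraries.

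*Mdh2* was at 128, 145 and 145 CPM in WT NoTx and 123, 119 and 125 CPM in WT UV libraries (log2 fold change -0.19, SE 0.11). *Sucla2* was at 50.4, 53.1 and 50.1 CPM in WT NoTx and 42.6, 45.0 and 48.4 CPM in WT UV libraries (log2 fold change -0.17, SE 0.09), and *Idh3a* at 65.9, 69.0 and 64.3 against 59.5, 59.5 and 62.2 CPM (log2 fold change -0.14, SE 0.08). These too did not overlap, which made 5 of the 9 genes, beside 17.3% of all tested genes. *Idh3b*, *Idh3g*, *Suclg1* and *Fh1* overlapped between the groups, with log2 fold changes from -0.16 to -0.04. edgeR called 0 of the 9, beside 2.06% of all tested genes called lower. Of the 9, 2 (*Cs* and *Ogdh*) had an unadjusted p under 0.05, as did 26.3% of all tested genes. DESeq2 called 0 of the 9, and 1972 of 13780 genes in either direction.

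Of the 8 further cycle genes, 2 were called lower by edgeR after UVB in WT nodes, beside 2.06% of all tested genes. They were *Sdhc* (log2 fold change -0.39, SE 0.10, edgeR adjusted p = 0.0414) and *Idh2* (-0.40, SE 0.11, adjusted p = 0.0459). *Sdhd* was at -0.36 (adjusted p = 0.0549) and *Dld* at 0.0032 (adjusted p = 0.986). The edgeR calls of *Sdhc* and *Idh2* were near the threshold, and the count was 0 in several fits that left out 1 library, among them WT NoTx library 2 or 3 and any 1 of the WT UV libraries. Of the pyruvate entry list 1 of 13 genes was called lower, of the 12 measured genes of anaplerosis and transport 3, and of the cytosolic and regulator lists 0 of 6 and 0 of 7.

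Proliferation markers summed to 320 to 391 CPM in WT NoTx and 428 to 551 CPM in WT UV nodes, and erythroid markers to 121 to 262 CPM and 10.8 to 39.5 CPM. Skeletal muscle markers were at 2.81 to 6.65 CPM in summed level in all 12 node libraries. The 8 T cell markers summed to 2972 to 3001 CPM in WT NoTx and 2425 to 2736 CPM in WT UV nodes. Without overlap 5 of them were lower, beside 17.3% of all tested genes, with a median log2 fold change of -0.18. The 6 lymph node stroma markers summed to 73.9 to 93.4 CPM and 22.4 to 57.5 CPM, and all 6 had a fold change below 0. The part of these cells in the node values was not tested.

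In TG nodes, UVB left the 9 genes with log2 fold changes from -0.08 (*Ogdh*, SE 0.09) to 0.07 (*Suclg1*, SE 0.08), and the groups overlapped for every gene. *Ogdh* was at 270, 251 and 272 CPM in TG NoTx libraries 4, 5 and 6 and at 227, 258 and 269 CPM in TG UV libraries 10, 11 and 12. *Cs* was at 221, 194 and 217 CPM in TG NoTx and 201, 213 and 218 CPM in TG UV libraries. The difference between the UVB responses of TG and WT nodes was tested as an interaction, and its 9 estimates were all positive, from 0.10 (*Idh3b*, SE 0.12) to 0.19 (*Cs*, SE 0.11). These comparisons share their libraries with those above.

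Between TG and WT nodes without UVB the 9 log2 fold changes lay between -0.13 (*Idh3b*, SE 0.08) and -0.01 (*Sucla2*, SE 0.09), and after UVB between -0.03 (*Idh3b*, SE 0.08) and 0.15 (*Mdh2*, SE 0.11). The TG and WT libraries overlapped for every gene in both. In each of the 4 comparisons that involve TG nodes edgeR called 0 of the 9 genes and 0% of all tested genes. DESeq2 called 0 of the 9. Over all genes it called 134 of 15864 (UVB in TG), 2 of 27761 (TG against WT NoTx), 21 of 16902 (TG against WT UV) and 5 of 27761 (interaction). An unadjusted p under 0.05 was reached by 0 of the 9, and by 9.32%, 3.39%, 6.99% and 5.45% of all tested genes in the same order. Of the 8 further cycle genes edgeR and DESeq2 also called 0 in these 4 comparisons. *Sdhc* alone had an unadjusted p under 0.05, in the interaction (0.35, edgeR adjusted p = 0.848) and in TG against WT UV nodes (0.21, adjusted p = 0.71). Values that miss the threshold do not show that the groups were alike.

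**Figure D5:**
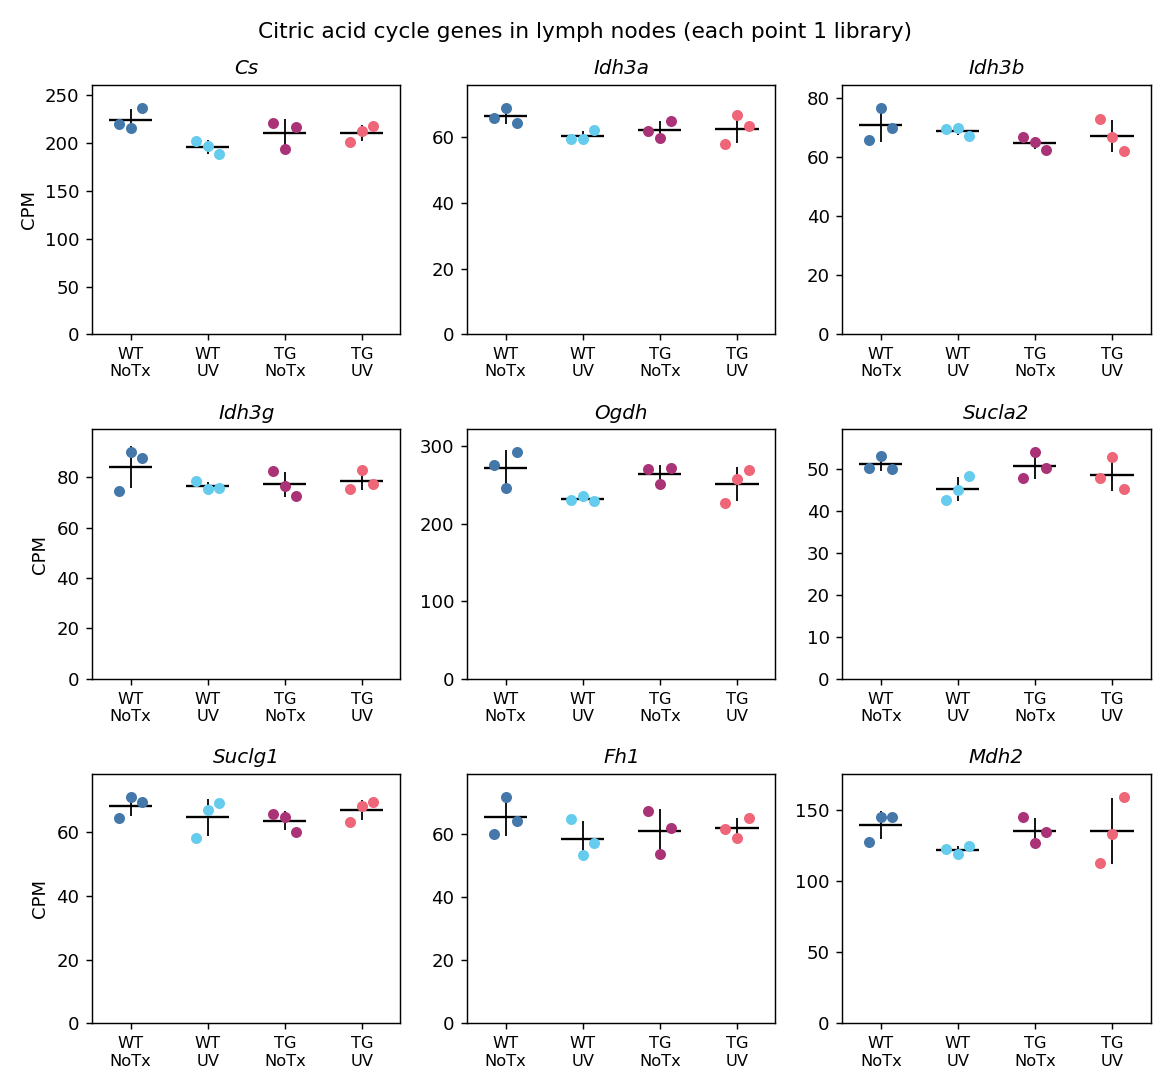
CPM (y axis, from 0) of each of the 9 genes in the lymph node libraries of WT and TG mice, untreated (NoTx) or after UVB (UV), n = 3 per group, 1 point per library, with the mean as a bar and the SD as a vertical line. WT UV points lie below WT NoTx points in 5 panels (*Cs*, *Idh3a*, *Ogdh*, *Sucla2*, *Mdh2*), and TG NoTx and TG UV points overlap in all panels.

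The genes most like the 9 in pattern were ranked by Pearson's r between their log2 CPM and the mean standardized log2 CPM of the 9 genes, as a description. Across the 9 skin libraries the 10 highest were *Nnt* (ENSMUSG00000116207, r = 0.998), which encodes a proton-pumping transhydrogenase of the inner mitochondrial membrane, *Coq5*, *Mfn2*, *Sspn*, *Pdhb*, *Tmem201*, *Ndufs1*, *Gnas*, *Spg7* and *Rhoq*, the last at r = 0.993. A second identifier also carries the symbol *Nnt*, so its reads may be split. Across the 12 node libraries they were *Mrpl30* (r = 0.968), *Mtarc2*, *Ntmt1*, *Sdhd*, *Prdx3*, *Rcl1*, *Lgals9*, *Mrpl10*, *Shisa5* and *Sdhc* (r = 0.908). No gene was on both lists. The libraries of a tissue share their groups, so the skin values carry the difference between L and the other skin.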

How the data were processed

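RNA of 9 skin and 12 lymph node samples was sequenced from polyA libraries. Per the labels and the study's methods, the authors trimmed reads with cutadapt 4.8, aligned them with STAR 2.7.8a to GRCm38 and deposited RSEM 1.3.3 expected counts per gene, 1 table per tissue. The deposited values are whole numbers. Strandedness is not given in the sources used here, so reads of overlapping genes on opposite strands could be mixed. RSEM divides reads shared between gene copies by probability.

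Each table was fitted on its own with edgeR 4.0.16 (R 4.3.3): filterByExpr (at least 10 counts), TMM scaling, glmQLFit with robust estimation over all groups of the tissue, and Benjamini-Hochberg adjustment over all tested genes at 0.05. CPM used TMM library sizes. Genes named beside the 9 members were further genes of the cycle and, of each other list, the 4 lowest p-values among genes called between L and WT skin. An item fixed for the lists is not reported here. Members and lists were chosen with earlier results of these data known. Replicates differed by more than counting noise (chi-square per degree of freedom 15.1 to 346). The fit was tested on simulated data with 200 changed genes. Alternatives were DESeq2 1.42.0, RLE scaling, other count filters, the compared groups alone, covariates for *Xist* and for muscle markers, scaling without muscle, fat and keratin genes, and leaving out each library. Depth sets counting error only: 3 counts, the floor, were at most 1.1e-05% of a library. RefSeq promoters (GRCm38.p6) and GENCODE positions were used.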

Additional observations from a re-analysis of the deposited data

Results flagged for a closer look

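In a group of 4 to 10 libraries, a library was singled out when its gap to the nearest other library exceeded Dixon's critical value as a share of the group's range. Only L skin is large enough, and 31 genes were examined in it. Chance singles out about 1 in 20 such groups. *Ogdh* was at 151 CPM in L library 5, the lowest, with the other 3 L libraries at 218 to 230 CPM. *Slc25a12* was at 65.2 CPM in L library 4, the highest of its group. *Nrf1* was at 21.4 CPM in its lowest L library. No gene described here had a UVB response in nodes that differed between TG and WT mice by the interaction test.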

How the results depend on the processing

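The count of the 9 genes called between L and WT skin stayed at 9 under DESeq2, RLE scaling, both other count filters, the compared groups alone, *Xist* as a covariate and scaling without muscle, fat and keratin genes, ranged from 8 to 9 when 1 library was left out and was 5 with muscle markers as a covariate. For the further cycle genes it was 8 throughout but 3 with that covariate. Between L and NL skin the members' count of 7 was 3 with the compared groups alone, 0 with the muscle covariate and 1 to 7 with 1 library left out, and the count of 7 for the further cycle genes was 3, 0 and 0 to 7, lowest without an NL library and 4 without L library 6. There, *Sdhb* turned to 0.021 on the log2 scale with the muscle covariate. With 2 NL libraries, a fit without one assumes that the other varies like the remaining groups. After UVB in WT nodes the further cycle genes had 1 call without a count filter, 0 with *Xist* as a covariate and 0 to 3 with 1 library left out, against 2 as reported. *Dld* at 0.0032 there was -0.0011 with DESeq2, -0.0013 with RLE scaling, -0.0036 with at least 10 counts in every library and -0.076 to 0.072 with 1 library left out. The cause of these moves was not tested. The members' count stayed at 0 in the NL against WT comparison and in all node comparisons under every alternative run. No paired analysis was possible because the labels do not say which libraries, if any, share a mouse.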
